A study of Mus musculus with 9 samples.

Results

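Apoptotic cell and debris clearance was followed through 10 genes, Mertk, Axl, Pros1, Mfge8, Itgav, Itgb5, Itgam, Dock1, Msr1 and Vav1. They were chosen by name, with earlier results of these data known. All 10 were present among the 757 genes of an nCounter mouse neuroinflammation panel, in which color-coded probes count RNA molecules directly. Microglia, the macrophages of the brain tissue, came from wild-type C57BL6/J mice, young adults per the study's methods and males per its legend of these samples, in 3 groups of 3 animals. TIA 24h and TIA 3d animals had a transient ischemic attack, modeled by briefly closing a cerebral artery, and were killed 24 h or 3 d later, whereas Sham animals had the surgery without the occlusion. All samples shared dissociation with actinomycin D, an inhibitor of transcription, and a sort of live CD45+CD11b+ cells, a gate that border macrophages and blood myeloid cells can also enter. Sham animals were not labelled with a time after surgery.

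Dying cells display phosphatidylserine on their surface, and phagocytes recognize it directly or through bridging proteins. Pros1 (protein S) links it to the receptor tyrosine kinase Mertk, the related receptor Axl is bridged mainly by another ligand, Gas6, and Mfge8 links it to the integrin of Itgav and Itgb5 subunits. Itgam encodes CD11b, the alpha chain of complement receptor 3, Msr1 encodes a scavenger receptor for modified lipoproteins and debris, and Dock1 and Vav1 activate Rac for the closing of the phagocytic cup. CD11b was also part of the sort, so that Itgam was a gene of the gate.

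The sequences just upstream of the start sites of the 3 genes that passed the test between time points, and of Vav1, which came closest to it, are given for context. They are the 250 bases before the RefSeq start on GRCm38.p6, on the plus strand, at chr16:33829415-33829664 for Itgb5, chr7:128062390-128062639 for Itgam, chr2:128698665-128698914 for Mertk and chr17:57278850-57279099 for Vav1. Capitals mark the PU box GAGGAA, a motif of the myeloid factor PU.1, and the Sp1 box GGGCGG, each on either strand.
Itgb5: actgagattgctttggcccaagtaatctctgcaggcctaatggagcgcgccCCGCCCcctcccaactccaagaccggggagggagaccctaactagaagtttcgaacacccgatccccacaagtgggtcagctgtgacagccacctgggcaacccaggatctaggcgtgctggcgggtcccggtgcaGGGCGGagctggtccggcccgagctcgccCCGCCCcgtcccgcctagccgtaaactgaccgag
Itgam: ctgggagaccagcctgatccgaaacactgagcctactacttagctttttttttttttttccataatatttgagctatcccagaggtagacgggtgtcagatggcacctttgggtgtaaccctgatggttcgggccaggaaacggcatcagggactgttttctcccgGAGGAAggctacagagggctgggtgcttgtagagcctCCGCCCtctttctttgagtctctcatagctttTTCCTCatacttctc
Mertk: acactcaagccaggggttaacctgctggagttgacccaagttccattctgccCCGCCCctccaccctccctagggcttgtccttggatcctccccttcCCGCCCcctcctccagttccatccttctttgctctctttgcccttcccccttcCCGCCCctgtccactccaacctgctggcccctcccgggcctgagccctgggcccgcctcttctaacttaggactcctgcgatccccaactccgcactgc
Vav1: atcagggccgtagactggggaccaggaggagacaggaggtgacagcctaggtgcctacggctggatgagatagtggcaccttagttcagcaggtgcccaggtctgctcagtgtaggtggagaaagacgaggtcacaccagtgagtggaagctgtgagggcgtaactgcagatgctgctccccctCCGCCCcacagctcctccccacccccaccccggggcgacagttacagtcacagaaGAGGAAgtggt
Itgam held 2 PU boxes, 84 and 15 bases before the start, and Vav1 held 1, 11 bases before it, whereas Itgb5 and Mertk held 3 Sp1 boxes each and no PU box. Of the 9 genes with an entry in the promoter table, 6 held a PU box (Axl, Dock1, Itgam, Itgav, Mfge8 and Vav1), against 23.3% of all 32851 promoters, and 8 held an Sp1 box, against 32.7%. These are matches of letters only, and binding was not measured.

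The samples differed widely in depth. The total count was 6560 to 25582 in Sham mice, 7248 to 10929 at 24 h and 29200 to 62883 at 3 d, so that every TIA 3d sample was deeper than every other sample, and depth and TIA 3d cannot be told apart. Levels below are log2 values of counts that the authors divided by each sample's housekeeping probes, and whole counts recovered from them are given beside. Of 13 microglial markers 10 were measured, and all 10 passed the limma test as higher at TIA 3d against TIA 24h, against 11.6% of all genes. Their summed share was 152 to 354 per 10000 counts at TIA 24h, 799 to 1449 at TIA 3d and 229 to 1760 in Sham, and their summed count was 110 to 387, 4232 to 5925 and 150 to 4503. The 8 measured oligodendrocyte markers took 169 to 464 per 10000 counts at TIA 24h, 19.9 to 41.3 at TIA 3d and 38.3 to 460 in Sham. The measured markers of astrocytes, neurons, endothelium and blood leukocytes (5, 6, 5 and 7 genes) also took smaller shares at TIA 3d than at TIA 24h, without overlap. Correlations with depth and a fit with depth as a covariate are given below, but neither can separate depth from TIA 3d. The part of these other cell types in the results below was not tested. In such bulk samples, fewer cells of a type and less RNA per cell cannot be told apart.

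**Figure D1:**
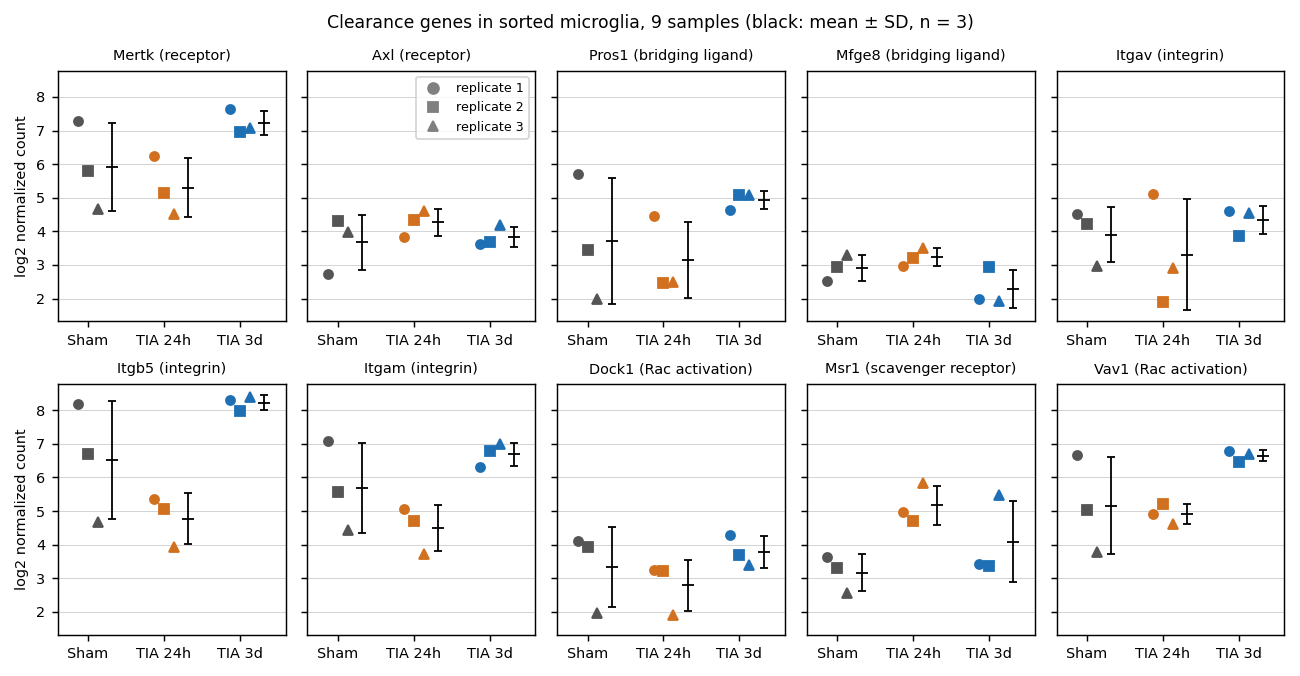
Log2 normalized count (vertical axis) of the 10 clearance genes in each of 9 samples, by group, with symbols for replicates and black marks for the mean ± SD (n = 3). Itgb5, Itgam, Mertk and Vav1 lay higher in all 3 TIA 3d samples than in all 3 TIA 24h samples, and Msr1 lay higher in all 3 TIA 24h samples than in all 3 Sham samples.

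Between the time points, TIA 3d samples had more Itgb5, Itgam and Mertk RNA than TIA 24h samples, by 10.9-fold, 4.60-fold and 3.81-fold. With limma, these 3 of 10 genes passed an adjusted p of 0.05, against 19.2% of all 757 genes in both directions and 11.6% higher at TIA 3d. No clearance gene passed in the other direction with the authors' scaling. With counts scaled to the sample total, Mfge8 and Msr1 passed as lower at TIA 3d, and Itgam and Mertk did not pass (50.1% of all genes passed). The median log2 difference over the 10 clearance genes was 1.38, against -0.25 over all genes and 2.99 over the 10 measured microglial markers. Against Sham, 0 of 10 genes passed at TIA 24h and 0 of 10 at TIA 3d, as for all genes (0.0% in each), and the F test over the 3 groups called 0 of 10 (0.0% of all genes), with 5 of 10 at an unadjusted p below 0.05, against 235 of the 757 genes. The smallest adjusted p of the F test was 0.0533, for Itgb5. Without TIA 24h replicate 2, TIA 24h replicate 3, TIA 3d replicate 1 or TIA 3d replicate 3, 0 of the 757 genes passed between time points, the 3 included. Without TIA 3d replicate 2, Itgb5 passed and Itgam and Mertk did not, and without Sham replicate 2, Mertk did not (limma adjusted p = 0.0596), while over all 9 omissions the differences stayed at 3.01 to 3.73 for Itgb5, 1.82 to 2.48 for Itgam and 1.54 to 2.40 for Mertk. Without Sham replicate 1, Itgb5, Mertk, Pros1 and Vav1 passed at TIA 3d against Sham, with limma differences of 2.53, 1.99, 2.22 and 2.24, as did 11.1% of all genes. At an unadjusted p below 0.05, 2 of 10 genes differed at TIA 24h and 2 of 10 at TIA 3d from Sham, against 57 and 148 of the 757 genes. By group mean, 7 of 10 genes (Dock1, Itgam, Itgav, Itgb5, Mertk, Pros1 and Vav1) were lowest at TIA 24h and highest at TIA 3d, while Axl, Mfge8 and Msr1 had their highest mean at TIA 24h.

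**Figure D2:**
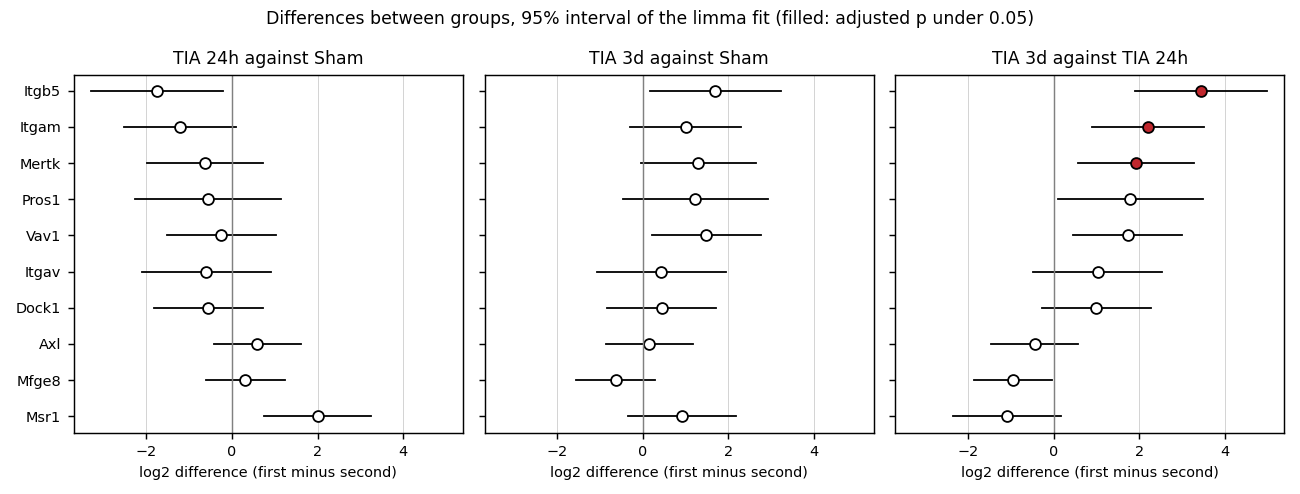
Log2 difference between groups (horizontal axis) with its 95% interval for each gene in 3 comparisons. Filled points mark the 3 genes past the threshold, Itgb5, Itgam and Mertk at TIA 3d against TIA 24h.

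Mertk, the receptor tyrosine kinase that microglia use to engulf dying cells, had log2 values of 7.30, 5.80 and 4.67 in Sham mice, 6.24, 5.13 and 4.51 at 24 h and 7.63, 6.96 and 7.08 at 3 d. All TIA 3d samples were above all TIA 24h samples, while Sham replicate 1 lay among the TIA 3d samples. The difference between the time points was 1.93 ± 0.63 (SE, n = 3 per group, limma adjusted p = 0.0474). Mertk ranked between the 76.7th and 97.8th percentile of the probes in every sample, and its percentile at TIA 3d overlapped that at TIA 24h, as did its share of the total count. With quantile normalization the difference was 0.53 (limma adjusted p = 0.599), and with counts scaled to the sample total 0.95 (limma adjusted p = 0.142).

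Axl, the related receptor known for its induction by inflammatory signals, gave log2 values of 2.75, 4.30 and 3.97 in Sham mice, 3.83, 4.35 and 4.62 at 24 h and 3.63, 3.68 and 4.18 at 3 d. The 3 groups overlapped, and the difference between time points was -0.44 ± 0.47 (SE, limma adjusted p = 0.50). The direction depended on the scale, since the counts of 15 to 33 at TIA 3d were all above the 9 to 13 at TIA 24h, whereas the share of 4.27 to 5.25 per 10000 counts was below the 8.23 to 17.9 at TIA 24h. Within samples, the log2 value of Axl minus that of Mertk was -3.40 ± 0.56 (SD, n = 3) at TIA 3d, -1.03 ± 1.28 at TIA 24h and -2.25 ± 2.03 in Sham. Its range at TIA 3d, -4.0 to -2.90, lay apart from that at TIA 24h and inside that of Sham.

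Of the bridging ligands, Pros1 had counts of 54, 10 and 2 in Sham mice, 14, 3 and 3 at 24 h and 44, 40 and 62 at 3 d. On the log2 scale it was 5.69, 3.45 and 1.97 in Sham mice, 4.46, 2.47 and 2.51 at 24 h and 4.63, 5.09 and 5.09 at 3 d. The time points did not overlap on the log2 scale, but they did as a share of the total, at 3.79 to 12.8 per 10000 counts at 24 h and 8.54 to 13.7 at 3 d. The log2 difference of 1.79 ± 0.79 did not pass the test (SE, limma adjusted p = 0.109), and with counts scaled to the sample total it was 0.69. Sham alone spanned more of the scale than the difference between time points, with 3.72 between its highest and lowest sample.

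Mfge8, the ligand of the integrin route, was counted 5 to 9 times in every sample and never exceeded the 32.0th percentile. Its log2 values were 2.52, 2.93 and 3.30 in Sham mice, 2.98, 3.21 and 3.51 at 24 h and 1.97, 2.94 and 1.94 at 3 d. The values at TIA 3d were all below those at TIA 24h, with a difference of -0.95 ± 0.43 that did not pass the test (SE, limma adjusted p = 0.118). Before scaling the order was the opposite, with 7, 9 and 7 counts at TIA 3d against 5, 5 and 6 at TIA 24h.

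Among the integrin subunits, Itgb5 gave the largest difference of the 10 genes between time points. Its counts were 306, 95 and 13 in Sham mice, 26, 18 and 8 at 24 h and 563, 293 and 612 at 3 d. The log2 values were 8.20, 6.70 and 4.67 in Sham mice, 5.36, 5.06 and 3.92 at 24 h and 8.30, 7.97 and 8.39 at 3 d, so that the time points did not overlap and the Sham samples spread over nearly the range of both. The difference was 3.44 ± 0.71 (SE, n = 3 per group, limma adjusted p = 0.0229). Itgb5 was also higher as a share of the total, 97.3 to 109 per 10000 counts at TIA 3d against 11 to 23.8 at TIA 24h. With quantile normalization the difference was 2.07 and did not pass (limma adjusted p = 0.0967). Against Sham it differed by -1.74 ± 0.71 at TIA 24h (limma adjusted p = 0.647) and by 1.70 ± 0.71 at TIA 3d (limma adjusted p = 0.210).

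For Itgav, the alpha subunit that pairs with Itgb5, counts were 24, 17 and 4 in Sham mice, 22, 2 and 4 at 24 h and 43, 17 and 43 at 3 d, and the groups overlapped on every scale used. The log2 difference between time points was 1.03 ± 0.70 with a 95% interval from -0.47 to 2.53 (SE, limma adjusted p = 0.284). The Itgb5 probe stood above the Itgav probe by 3.71 to 4.11 within the TIA 3d samples, by 0.24 to 3.17 within the TIA 24h samples and by 1.70 to 3.67 within Sham.

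Itgam had log2 values of 7.09, 5.55 and 4.43 in Sham mice, 5.05, 4.69 and 3.73 at 24 h and 6.31, 6.78 and 6.98 at 3 d. All TIA 3d samples were above all TIA 24h samples, by 2.20 ± 0.60 (SE, n = 3 per group, limma adjusted p = 0.0334), and Sham replicate 1 was above every TIA 3d sample. Itgam took 27.4 to 44.2 per 10000 counts at TIA 3d and 9.66 to 19.2 at TIA 24h. The difference was 1.37 with quantile normalization (limma adjusted p = 0.175) and 1.20 with counts scaled to the sample total (limma adjusted p = 0.0639). Since cells were sorted on its protein, the level describes cells already chosen for it.

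Msr1, the scavenger receptor, was the 1 clearance gene of 10 whose TIA 24h samples lay apart from Sham, against 9.78% of all genes, while 0 of 10 lay apart at TIA 3d, against 24.2%. Its counts were 13, 9 and 3 in Sham mice, 20, 14 and 30 at 24 h and 19, 12 and 81 at 3 d. The log2 values were 3.64, 3.30 and 2.56 in Sham mice, 4.98, 4.69 and 5.83 at 24 h and 3.42, 3.36 and 5.47 at 3 d. Every TIA 24h sample was above every Sham sample in counts, log2 values, share of the total and percentile. The share was 17.7 to 41.4 per 10000 counts at TIA 24h against 4.57 to 6.04 in Sham, and the percentile 78.0 to 98.5 against 9.31 to 48.0. The log2 difference was 2.00 ± 0.58, a 4.0-fold difference that did not pass the test over all genes (SE, n = 3 per group, limma adjusted p = 0.617). Beside it, the 7 measured blood leukocyte markers took 63.1 to 81.4 per 10000 counts at TIA 24h and 25 to 76.2 in Sham. On the log2 scale 4 of these 7, Ccr2 among them, were higher in every TIA 24h sample than in every Sham sample, against 61 of all 757 genes. The median difference of the 7 was 0.74, and 2 of the 7 differed in the other direction. Ccr2, a monocyte receptor, was 3.85, 3.45 and 3.30 in Sham mice and 3.98, 4.35 and 4.73 at 24 h. Its counts overlapped, at 15, 10 and 5 in Sham mice and 10, 11 and 14 at 24 h. Cd163, the 1 measured border macrophage marker, had 11 to 19 counts at TIA 24h and 14 to 19 in Sham. In the same comparison all 10 measured microglial markers were lower at TIA 24h by mean, with a median log2 difference of -1.78. All 8 oligodendrocyte, 6 neuronal and 5 astrocyte markers and 4 of 5 endothelial markers were higher by mean. None of these passed the test, and of all genes 461 were higher and 296 lower. The part of these cells in the Msr1 difference was not tested. The Msr1 difference passed in 0 of 19 alternative analyses and lay between 1.67 and 2.46 in them. Several of these, such as the ordinary linear model and leaving out a TIA 3d sample, leave the estimate unchanged by construction. All of them reuse the same samples. At TIA 3d, replicate 3 was high and the other two were at the level of Sham replicates 1 and 2, so that the group spread was 1.20 (SD, log2).

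Of the Rac activators, Vav1 had log2 values of 6.67, 5.03 and 3.78 in Sham mice, 4.90, 5.21 and 4.62 at 24 h and 6.78, 6.46 and 6.69 at 3 d. It was higher in every TIA 3d sample than in every TIA 24h sample, also as a share of the total, with a difference of 1.73 ± 0.59 that lay just outside the threshold (SE, limma adjusted p = 0.0550), and its percentiles overlapped. The Vav1 difference was 0.64 with quantile normalization (limma adjusted p = 0.526) and 0.75 with counts scaled to the sample total (limma adjusted p = 0.212). Dock1 was counted 18, 14 and 2 times in Sham mice, 6, 5 and 2 at 24 h and 35, 15 and 19 at 3 d. Its log2 difference between time points was 1.00 ± 0.59 (SE, limma adjusted p = 0.224), without overlap on the log2 scale and with overlap in the share of the total.

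Taking all 10 genes, 7 lay apart between TIA 24h and TIA 3d on the log2 scale (6 higher at TIA 3d, and Mfge8 lower), against 48.3% of all genes. By percentile within the sample, 4 of 10 (Itgb5, Itgam, Dock1 and Pros1) were higher at TIA 3d without overlap, against 18.0% of all genes. As a share of the total count, 3 of 10 (Itgb5, Itgam and Vav1) were higher, against 10.2%, and 3 of 10 (Axl, Mfge8 and Msr1) were lower, against 55.1%. Itgb5 and Itgam were thus apart on each of these scales, and Mertk was apart on the log2 scale and in counts but not in percentile or share.

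**Figure D3:**
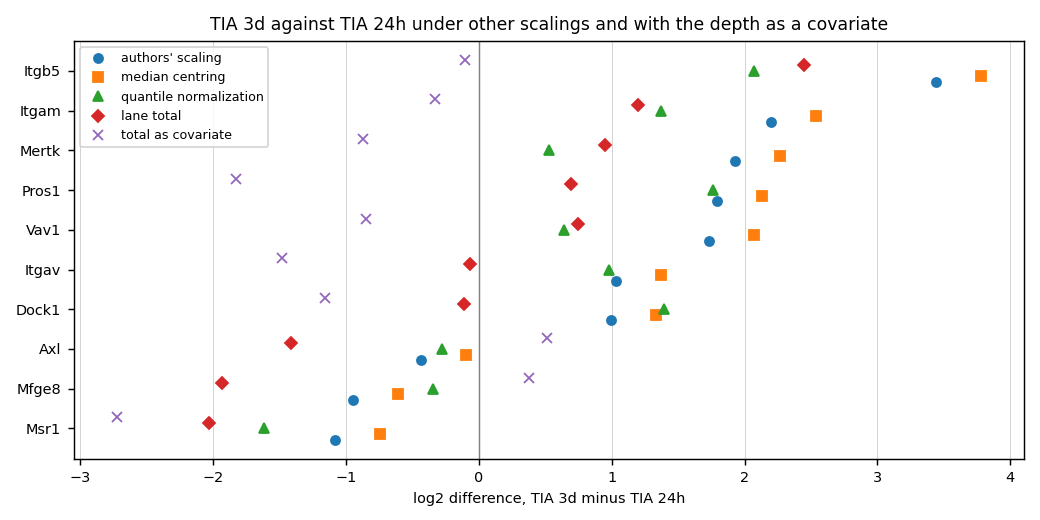
Log2 difference between TIA 3d and TIA 24h (horizontal axis) of each gene with the authors' scaling, 3 other scalings and the total count as a covariate. Itgb5, Itgam and Mertk stayed above 0 under the 3 other scalings, the lowest values being 2.07, 1.20 and 0.53, and lay below 0 with the covariate, at -0.10, -0.33 and -0.87.

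The log2 level correlated with the log2 total count of the sample at an adjusted p below 0.05 for 6 of 10 genes, against 37.1% of all genes (148 positively and 133 negatively). The correlation was positive for Itgam, Itgb5, Mertk, Pros1 and Vav1 and negative for Mfge8. For Itgb5, Pearson's r was 0.946 over 9 samples (exact permutation p = 0.000482, adjusted over all genes 0.00598) and Spearman's rho 0.967 (exact permutation p = 0.000165, adjusted 0.00391), and r was 0.972 without the 2 deepest samples. Mfge8 is in this count, but with 5 to 9 counts in every sample its log2 value follows the scaling factor of the sample, which spanned 3.58-fold and was larger in shallower samples, so that its correlation says nothing of its RNA level. For Msr1, r was -0.039 (exact permutation p = 0.917, adjusted 0.932) and rho 0.083 (exact permutation p = 0.843, adjusted 0.880), and r without those samples was -0.346. Over the 6 Sham and TIA 24h samples alone, r was 0.968 for Itgb5 and -0.238 for Msr1 (exact permutation p = 0.00417 and 0.640), and after adjustment over all genes neither passed (0.0789 and 0.816).

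**Figure D4:**
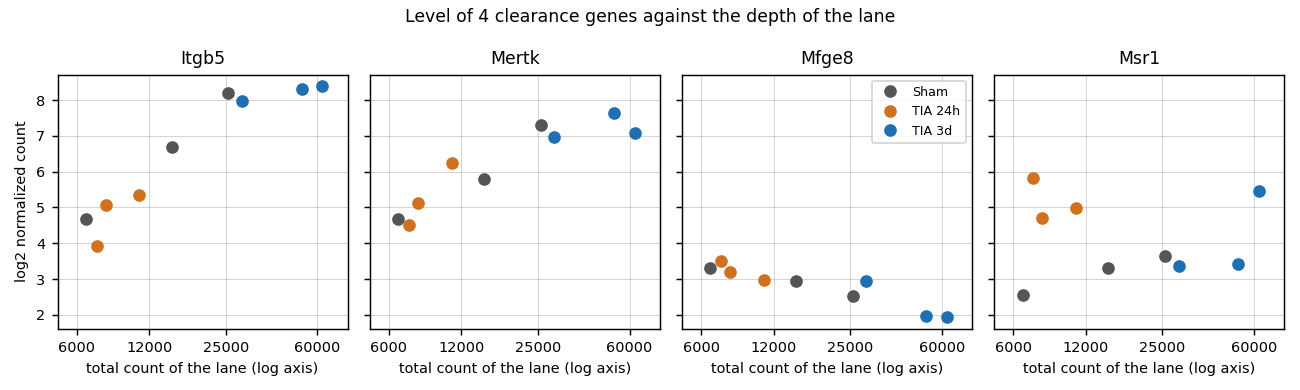
Log2 normalized count (vertical axis) of Itgb5, Mertk, Mfge8 and Msr1 against the total count of the sample (horizontal log axis), one point per sample, colored by group. Itgb5 and Mertk were higher in deeper samples within Sham too, Mfge8 was lower at 5 to 9 counts throughout, and the 3 TIA 24h samples of Msr1 lay above Sham samples at 6560 to 25582 counts.

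Samples of like depth were also set side by side, as single samples without a test. TIA 3d replicate 2 (29200 counts) and Sham replicate 1 (25582 counts) differed by -0.23 in Itgb5, -0.31 in Itgam, -0.34 in Mertk and -0.21 in Vav1 on the log2 scale. This pair is of TIA 3d and Sham, not of the time points. TIA 24h replicates 1, 2 and 3 differed from the Sham sample nearest in depth by -1.34, 0.38 and -0.75 in Itgb5. The same pairs differed by -0.50, 0.26 and -0.71 in Itgam, 0.44, 0.46 and -0.17 in Mertk and -0.13, 1.43 and 0.84 in Vav1. For Msr1, TIA 24h replicates 1, 2 and 3 were above the Sham sample nearest in depth by 1.68, 2.13 and 3.27, and 25, 14 and 2 of the other genes had a larger difference in the same pairs. TIA 24h replicates 2 and 3 were both set against Sham replicate 3, which had 3 counts of Msr1, the lowest of all samples.

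Among other genes of the clearance pathway, 27 of 60 listed were measured, and 11 of them passed the test between time points, all higher at TIA 3d, against 19.2% of all genes and 11.6% higher. These were the complement recognition subunits C1qa, C1qb and C1qc, by 3.38, 3.34 and 3.65 on the log2 scale, and the receptor Trem2 with its adaptor Tyrobp, by 2.84 and 3.12. The Fc receptors Fcgr1, Fcgr2b and Fcgr3 differed by 1.89, 1.95 and 2.74, and Fcer1g, a signaling chain of some Fc receptors, by 1.75. The kinases Lyn and Pik3cg differed by 2.11 and 2.03. The limma adjusted p of the 11 genes was at most 0.0474. Against Sham, 0 of 27 passed at either time, with a median difference of -0.18 at TIA 24h and 1.35 at TIA 3d, against 0.15 and -0.01 over all genes. Trem2 and Tyrobp were also in the list of microglial markers.

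The genes outside the list of 10 whose log2 values most resembled those of each clearance gene over the 9 samples were listed by Pearson's r, as a description in which all genes share the depth of the samples. Itgb5 was nearest to Csf1r, Trem2 and Mpeg1 (0.995, 0.987 and 0.985), and Itgam to Fcrls, Csf1r and Olfml3 (0.983, 0.978 and 0.978). Mertk was nearest to Slco2b1, Tgfbr1 and Itga6 (0.972, 0.972 and 0.969), and Vav1 to Hpgds and Inpp5d (0.988 and 0.984). Pros1 was nearest to Itga6, Fen1 and Cflar, Itgav to Bcl2l1, Fen1 and Nrp2, and Dock1 to Irak1, Cx3cr1 and Gpr34, with r between 0.881 and 0.954. Csf1r, Fcrls, Olfml3, Trem2, Cx3cr1 and Gpr34 were among the microglial markers. The genes nearest to Axl were Ifitm2, Fas and Setd1a (0.922, 0.857 and 0.830), those nearest to Mfge8 were Ikbke, Ptx3 and Anxa1 (0.958, 0.939 and 0.937), and those nearest to Msr1 were Prkacb, Optn and Top2a (0.857, 0.834 and 0.813).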

How the data were processed

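Sorted microglia of 9 mice (3 Sham, 3 TIA 24h, 3 TIA 3d) were measured on the nCounter SPRINT with the mouse neuroinflammation code set. The authors divided counts by the geometric mean of geNorm-selected housekeeping probes in ROSALIND and deposited log2 values. The methods leave out genes below the highest negative control, and whether this was applied to the table is not stated. Whole counts were recovered from the deposited log2 values, since 2 to the power of each value was a whole multiple of 1 step per sample (100% of values within 0.01). Totals ranged from 6560 to 62883, and genes with 2 or 3 counts are imprecise. Labels separate the samples by animal group, and p-values measure the spread between these samples.

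Groups were compared with limma 3.58.1 in R 4.3.3 on the log2 values of all 757 genes, with 1 mean per group, a prior of 7.23 degrees of freedom and Benjamini-Hochberg adjustment over all genes (threshold 0.05, two-sided). The 3 comparisons share samples, so they are not independent. Intervals are 95% intervals of this fit. The code was tested on simulated data. Alternatives were median centring, quantile normalization, counts scaled to the sample total (pseudocount 0.5), leaving out the lowest 0.25 of genes by mean, an ordinary linear model, voom on recovered counts, array weights, a robust prior with an intensity trend, a replicate block, the total count as a covariate and leaving out each sample. Whether replicate numbers pair the samples is not stated, and the main fit treated the samples as unpaired. Correlations with depth used two-sided exact permutation tests, adjusted over all genes.

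The 10 genes were named whatever their values, of the wider pathway list those past the threshold, and for each of the 10 the 3 genes outside the list with the highest correlation, of which 1 is not reported here. Members and lists were chosen with earlier results of these data known. All gene symbols matched RefSeq on GRCm38.p6, 7 through synonyms. Msr1 had no entry in the promoter table used.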

Additional observations from a re-analysis of the deposited data

Results flagged for a closer look

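The change from Sham at TIA 3d differed from that at TIA 24h for 3 of the 10 genes, against 19.2% of all genes, by a test of the difference itself, which equals the comparison of the time points because both changes use the same Sham samples. On the log2 scale this difference was 3.44 for Itgb5, 2.20 for Itgam and 1.93 for Mertk (limma adjusted p = 0.0229, 0.0334 and 0.0474). The part of depth in it cannot be told apart from that of TIA 3d.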

How the results depend on the processing

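At TIA 24h against Sham, 0 genes passed under every alternative tried, of 10 genes tested except where leaving out low genes removed Mfge8. At TIA 3d against Sham, array weights called 3 genes (Itgb5, Mertk and Vav1, with 23.0% of all genes), and leaving out 1 sample called 0 to 4, the 4 without Sham replicate 1 (Itgb5, Mertk, Pros1 and Vav1, with 11.1% of all genes). At TIA 3d against TIA 24h, where 3 passed, quantile normalization called 0, the ordinary linear model 0, the total count as a covariate 0, voom 1 (Itgb5) and array weights 7 (of all genes 7, 0, 0, 97 and 314). Scaling to the sample total also called 3 (50.1% of all genes), but these were Itgb5, Mfge8 and Msr1, at 2.44, -1.93 and -2.03. The intensity trend called 3 as well (23.4% of all genes), Itgam, Itgb5 and Vav1, with an adjusted p of 0.0593 for Mertk. Leaving out 1 sample called 0 to 5: 0 without TIA 24h replicate 2, TIA 24h replicate 3, TIA 3d replicate 1 or TIA 3d replicate 3, 1 without TIA 3d replicate 2, and 5 without Sham replicate 1 or Sham replicate 3 (of all genes 0 in each of the first 4, then 15.1%, 29.9% and 28.9%). For the F test, which called 0, median centring called 1, scaling to the sample total 3, leaving out low genes 1, the intensity trend 2, array weights 7 and the replicate block 1, with 6.87%, 32.2%, 7.04%, 6.61%, 39.0% and 7.13% of all genes, and leaving out 1 sample called 0 to 5, with 18.0% of all genes at the 5 without Sham replicate 1. With the total count as a covariate, the differences between time points reversed to -0.87 for Mertk, -0.10 for Itgb5 and -0.33 for Itgam, and no TIA 3d total overlapped the others. The causes were not tested.

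With the replicate number as a block, 4 genes passed between time points, Vav1 being added, with 18.5% of all genes. Whether the numbers pair the samples is not stated. Deviations of same-numbered samples correlated between -0.24 and 0.27, and 5 of 9 samples correlated best with their own number, which does not settle it. Of 567 values for single genes under alternatives, 516 stayed on the same side of the threshold with no called value changing sign (37 uncalled values did change sign), 26 lost the call, 22 gained one and 3 reversed. Over all genes, the comparison of time points called 145 (88 higher, 57 lower), against 123 higher and 21 lower with median centring, 35 and 344 with the sample total, 3 and 4 with quantile normalization, 149 and 165 with array weights, 16 and 81 with voom, 0 with the ordinary linear model and 0 with the covariate. The median difference of all genes moved from -0.25 to 0.09 with median centring, -0.03 with quantile normalization and -1.27 with the sample total.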
